A study of Homo sapiens with 4 samples.

Results

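Collagens are the main structural proteins of the extracellular matrix, built from chains that wind around each other into a helix of Gly-X-Y repeats. Fibrillar collagens such as types I, III and V make the fibres of connective tissue, and type IV makes the sheet-like network of basement membranes on which epithelia rest. Other classes coat the fibrils, form beaded filaments or span the cell membrane. Epithelial tumour cells such as those of the lung are known to secrete basement membrane collagens, and most fibrillar collagen in a tumour is made by fibroblasts.

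The collagen genes were selected by symbol, as probe sets whose single annotated gene was COL, a number, A and a number, with 1 probe set for each gene. They were 41 of the 17687 genes with a named probe set on the array, each with 1 probe set. They were then divided by a measured value, the mean level over the 4 arrays, into 11 brighter genes at 6.4 or more and 30 dimmer genes below it. That mean is therefore a description of the 2 parts and not a result. The division fell between COL26A1, at 6.51 just inside, and COL2A1, at 6.35 just outside. COL3A1, COL7A1 and COL17A1 had no probe set named here and were not analysed.

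All samples were A549 cells, a long-established line from a human lung adenocarcinoma, depleted of LDOC1 with a short hairpin RNA (shLDOC1). In 2 of them H2BK120R was added, a form of histone H2B that has arginine in place of the lysine that takes monoubiquitin, and the other 2 carried the vector only. The design text states that H2B monoubiquitylation (H2Bub1) went up on depletion and down with the mutant, so the comparison asks which transcripts differ when the mark is lowered. All 4 samples carried the hairpin and were grown with puromycin. Neither an unmutated H2B construct nor cells with intact LDOC1 were analysed here, and added histone and the mutation cannot be told apart. The labels name no separate clones or cultures behind the replicates, so the p-values measure the spread of these 4 arrays alone, and that spread may be technical.

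Levels are log2 values of an Affymetrix whole-transcript array, and each difference is H2BK120R minus vector on that scale. A level also depends on how well a probe set binds, so levels of different genes were not ranked as amounts of RNA. Array medians lay between 6.4 and 6.43. Vector replicate 1 correlated least with the others (mean r across probe sets 0.991) and had the highest lower quartile, 4.28, against 4.11 to 4.20 in the other 3. LDOC1 itself was at 8.37 and 8.66 with H2BK120R, against 8 and 8.33 with vector, and both groups carry the hairpin.

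The keratins that mark this epithelial line were bright, with KRT8 at a mean of 17.15 and KRT18 at 15.04, and the cadherin CDH1 was at 10.92. The epithelial adhesion gene EPCAM (5.58) and CLDN4 (3.47) were dim, so 5 of the 7 epithelial markers reached 6.4. Among the 7, CDH1 and KRT7 had an unadjusted p under 0.05 (28.6%, against 6.70% of all probe sets), and none passed after adjustment. Without overlap between groups, CDH1 and KRT18 were higher (28.6%, against 18.6% of all probe sets). KRT7, KRT19 and CLDN4 were lower without overlap (42.9%, against 17.9%). CDH1 was at 11.24 and 11.20 with H2BK120R, against 10.55 and 10.69 with vector, and was higher by 0.60 ± 0.15 (limma adjusted p = 0.650). KRT7 was at 15.33 and 15.07 with H2BK120R, against 15.57 and 15.46 with vector, at -0.32 ± 0.11 (limma adjusted p = 0.722). Their unadjusted p-values were 0.00241 and 0.0192, and their part in the collagen values was not tested. The mean over the 7 markers, which averages genes that were higher and genes that were lower, was 10.55 and 10.58 with H2BK120R, against 10.61 and 10.66 with vector. Of 8 fibroblast markers 1 reached 6.4, which was PDGFRL at 9.56, while DCN, LUM, PDGFRA and PDGFRB lay between 3.80 and 4.42. The mean over the fibroblast markers was 4.70 and 4.87 with H2BK120R, against 4.82 and 4.50 with vector. None of the 6 endothelial and none of the 5 measured leukocyte markers reached 6.4. In the smooth muscle and pericyte list 1 of 5 did, ACTA2 at 7.42. To show what 6.4 means on this array, 1 of 348 olfactory receptor genes (0.287%), a family hardly expressed in lung, reached it, as did 50.1% of all probe sets.

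With limma, 0 collagen genes and 0 of the 21448 probe sets (0%) had an adjusted p under 0.05. The smallest adjusted p of a collagen gene was 0.745. Most collagen genes had a lower value with H2BK120R than with vector: 31 of 41 were lower and 10 higher, with a median difference of -0.18. Over all probe sets 49.4% were lower and the median was 0. Before adjustment, 2 collagen genes had a p under 0.05, COL5A1 and COL21A1, both lower. They make up 4.88% of the 41, against 6.70% of all probe sets, so the count was near the background.

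Both arrays with H2BK120R lay below both vector arrays for 14 collagen genes, or 34.1%, against 17.9% of all probe sets. They lay above both for 3 genes, or 7.32%, against 18.6% of all probe sets. Of the 30 dimmer genes 36.7% lay below and 10% above, against 18.9% and 15.2% of all probe sets below 6.4. Of the 348 olfactory receptor genes the shares were 22.4% and 11.8%. Of the 11 brighter genes 27.3% lay below and 0% above, against 16.9% and 22.0% of probe sets at 6.4 or more. The 41 genes were chosen with results of these arrays known, so these shares describe the genes and have no test. In a culture, fewer cells that express a gene and less of its RNA per cell cannot be told apart.

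**Figure D1:**
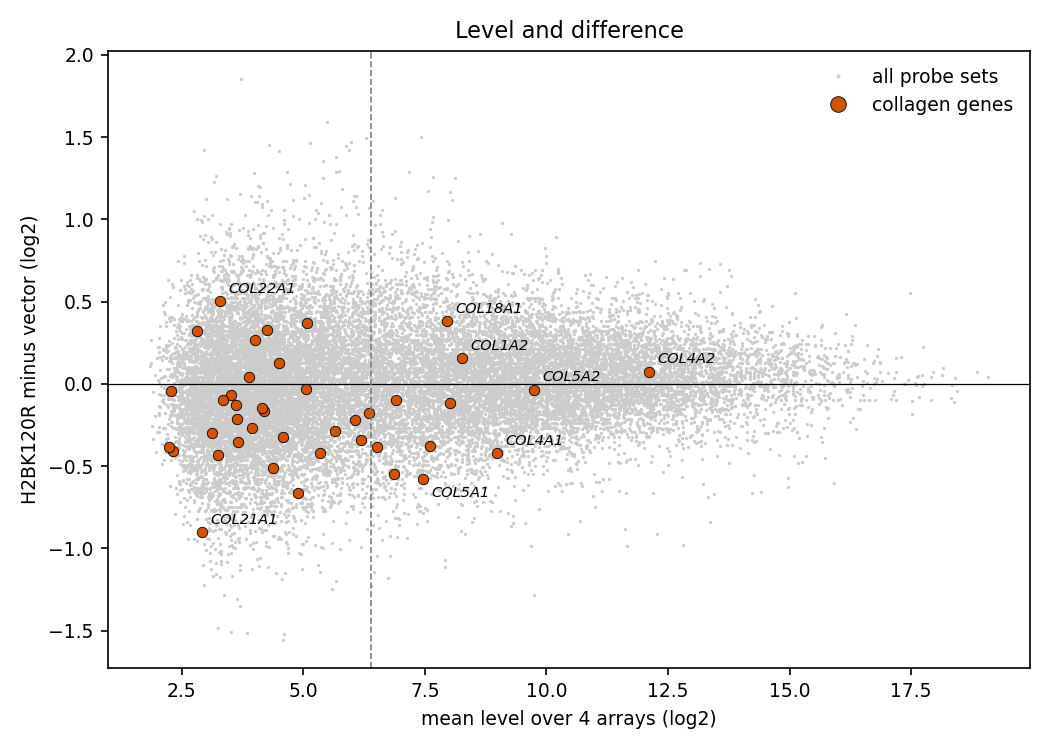
Difference (H2BK120R minus vector, log2) against mean level over the 4 arrays (log2) for all 21448 probe sets in grey and the 41 collagen genes in orange, with a dashed line at 6.4. The collagen genes lie inside the grey cloud, 31 of them below 0.

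The brighter part held both ubiquitous chains of type IV, COL4A1 and COL4A2, which assemble into the network found in nearly every basement membrane. COL4A2 (probe set TC1300008010.hg.1) was at 12.33 and 11.96 with H2BK120R, against 12.07 and 12.07 with vector. The groups overlapped, and the difference of 0.08 ± 0.15 (limma standard error) had a 95% confidence interval of -0.26 to 0.41. COL4A1 (TC1300009781.hg.1) was at 8.72 and 8.84 with H2BK120R, against 9.02 and 9.38 with vector. Both mutant arrays were lower here, by a mean of -0.42 ± 0.21 (95% interval -0.87 to 0.03, limma adjusted p = 0.746), or 74.7% of the vector level. The difference was -0.24 without vector replicate 2.

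COL4A1 and COL4A2 stand head to head and are transcribed away from each other from 1 short region. In the RefSeq promoter windows of GRCh38.p14, which run from 250 bases before a start to 50 after it, the 2 starts were 127 bases apart and the windows shared 226 bases. The window of COL4A2 is shown because it holds both starts of this pair, of which COL4A1 was lower without overlap and COL4A2 overlapped. The window of COL5A1, the brighter gene with the smallest p, and that of COL4A3, from a dim head-to-head pair, are shown beside it. Capitals mark CCAAT and GGGCGG on either strand, the motifs known for binding NF-Y and Sp1-type factors. The windows lie at chr13:110307034-110307333, chr9:134641553-134641852 and chr2:227164374-227164673, all on the plus strand.
COL4A2: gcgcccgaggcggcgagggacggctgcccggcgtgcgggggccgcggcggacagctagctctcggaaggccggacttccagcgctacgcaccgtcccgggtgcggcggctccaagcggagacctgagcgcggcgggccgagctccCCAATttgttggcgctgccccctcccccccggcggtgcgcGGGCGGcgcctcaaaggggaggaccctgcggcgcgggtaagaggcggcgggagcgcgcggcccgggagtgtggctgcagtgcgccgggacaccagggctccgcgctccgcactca
COL5A1: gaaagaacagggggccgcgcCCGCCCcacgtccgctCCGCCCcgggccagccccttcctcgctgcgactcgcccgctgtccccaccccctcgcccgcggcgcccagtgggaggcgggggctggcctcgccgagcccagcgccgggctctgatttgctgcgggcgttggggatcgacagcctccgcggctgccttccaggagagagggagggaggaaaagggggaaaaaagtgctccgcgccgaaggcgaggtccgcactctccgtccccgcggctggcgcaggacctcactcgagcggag
COL4A3: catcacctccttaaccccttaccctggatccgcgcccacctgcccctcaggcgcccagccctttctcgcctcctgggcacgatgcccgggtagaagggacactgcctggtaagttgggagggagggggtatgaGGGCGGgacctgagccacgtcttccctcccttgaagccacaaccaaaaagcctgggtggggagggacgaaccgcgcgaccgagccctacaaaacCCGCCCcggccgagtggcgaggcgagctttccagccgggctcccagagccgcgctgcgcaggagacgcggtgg

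The COL4A2 window held 1 CCAAT, 1 GGGCGG and 45 CpG dinucleotides. That of COL5A1 held 2 GGGCGG, 0 CCAAT and 36 CpG, and that of COL4A3 2 GGGCGG, 0 CCAAT and 24 CpG. A match says only that the letters are there.

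The other type IV genes were dim. COL4A3, COL4A4 and COL4A5 encode the chains of the kidney filter's basement membrane, which are mutated in Alport syndrome, and COL4A6 pairs with COL4A5 in other epithelia. COL4A3 was at 3.21 and 2.85 with H2BK120R, against 3.33 and 3.59 with vector. It did not overlap between groups, with a difference of -0.43 ± 0.30 (95% interval -1.09 to 0.23). That value was -0.25 when H2BK120R replicate 2 was left out and -0.30 when vector replicate 2 was. Its head-to-head neighbour COL4A4 was at 5.31 and 4.78 with H2BK120R, against 5.31 and 4.84 with vector, which overlapped almost fully.

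COL4A5 was at 3.15 and 4.67 with H2BK120R, against 4.02 and 3.71 with vector. The 2 mutant arrays enclosed both vector arrays, so the difference of 0.05 ± 0.44 is a mean of unlike values. COL4A6 was at 4.60 and 4.24 with H2BK120R, against 4.60 and 3.58 with vector, and overlapped too. Of the 6 type IV genes, 3 were lower and 3 higher, and the median difference was 0.01.

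Among the fibrillar collagens, COL5A1 had the smallest unadjusted p of all 41 genes, 0.0331. It encodes a chain of type V, a minor fibrillar collagen that starts and limits type I fibrils and is mutated in classical Ehlers-Danlos syndrome. COL5A1 (TC0900009127.hg.1) was at 7.17 and 7.19 with H2BK120R, against 7.81 and 7.70 with vector. The groups were tight and apart, averaging 7.18 ± 0.01 with H2BK120R and 7.76 ± 0.08 with vector (SD, n = 2 each). The difference was -0.58 ± 0.24, or 67.1% of the vector level, with a 95% interval of -1.09 to -0.06 and a limma adjusted p of 0.745. It lay between -0.63 and -0.52 when any 1 array was left out. The unadjusted p then passed 0.05 only without vector replicate 2 (0.0446), and was 0.108, 0.0984 and 0.0784 in the other 3 fits.

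Its partner chain COL5A2 (TC0200015204.hg.1) was at 9.60 and 9.85 with H2BK120R, against 9.95 and 9.57 with vector. These overlapped, at a difference of -0.04 ± 0.20 (95% interval -0.47 to 0.40). COL1A2 (TC0700008358.hg.1), a chain of type I, was at 8.26 and 8.41 with H2BK120R, against 8.10 and 8.26 with vector. The groups touched at 8.26, and the difference was 0.16 ± 0.22. The other type I chain, COL1A1, lay just under the division, at 5.93 and 6.10 with H2BK120R, against 6.4 and 6.31 with vector. Both mutant arrays were lower for COL1A1, by a mean of -0.34 ± 0.28 (95% interval -0.95 to 0.27).

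COL2A1, the collagen of cartilage fibrils, was at 6.23 and 6.29 with H2BK120R, against 6.44 and 6.43 with vector, without overlap. Its difference of -0.18 was smaller than its limma standard error of 0.27. COL27A1, a further fibrillar collagen of cartilage, was at 5.70 and 6.19 with H2BK120R, against 6.11 and 6.22 with vector, and overlapped. In all, 7 of the 10 measured fibrillar genes were lower and 3 higher (COL1A2, COL11A1 and COL24A1), with a median of -0.17, and 0 passed in limma after adjustment.

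**Figure D2:**
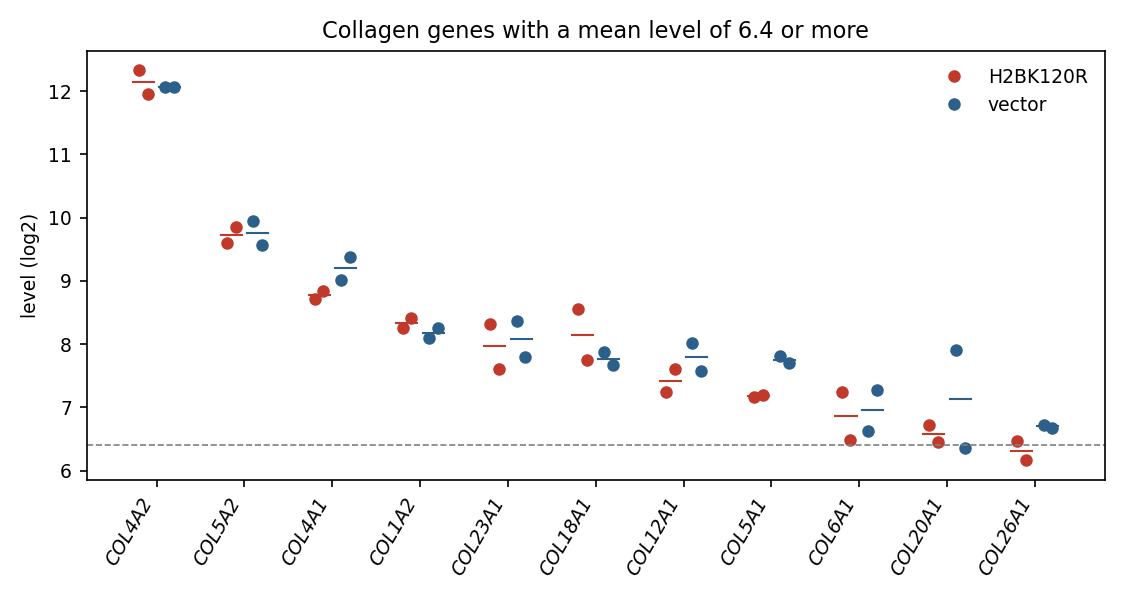
Level (log2) of the 11 brighter collagen genes in each array, H2BK120R in red and vector in blue, with replicates 1 and 2 from left to right, the group mean as a short line and the dashed line at 6.4. COL4A1, COL5A1 and COL26A1 have both red points below both blue points, while COL20A1 shows vector replicate 1 at 7.91 far above the other 3 arrays.

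Collagens that associate with fibrils or form filaments gave 3 of the brighter genes. COL12A1 (TC0600012314.hg.1), which binds type I fibrils, was at 7.24 and 7.60 with H2BK120R, against 8.02 and 7.58 with vector. The groups overlapped by a narrow margin, with a difference of -0.38 ± 0.26 that was -0.16 without vector replicate 1 and -0.60 without vector replicate 2. COL6A1 (TC2100007446.hg.1), a chain of the beaded filaments of type VI, was at 7.24 and 6.48 with H2BK120R, against 6.63 and 7.28 with vector. Each group held a high and a low array, and the difference of -0.10 ± 0.33 was far below that spread. COL20A1 (TC2000008056.hg.1), a fibril-associated collagen, was at 6.72 and 6.45 with H2BK120R, against 7.91 and 6.35 with vector. Here 1 array set the sign: the difference of -0.55 ± 0.42 became 0.24 without vector replicate 1 and -1.33 without vector replicate 2.

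The remaining brighter genes came from 3 further classes. COL23A1 (TC0500013016.hg.1), a transmembrane collagen, was at 8.32 and 7.61 with H2BK120R, against 8.37 and 7.79 with vector. Replicate 1 was the higher one in both groups, and the difference was -0.12 ± 0.29. COL18A1 (TC2100007420.hg.1), a basement membrane collagen whose cleaved end is endostatin, was at 8.56 and 7.74 with H2BK120R, against 7.87 and 7.67 with vector. Its difference of 0.38 ± 0.28 rested on the first mutant array, being -0.03 when H2BK120R replicate 1 was left out and 0.79 when H2BK120R replicate 2 was. COL26A1 (TC0700008592.hg.1), a short collagen with an EMI domain, was at 6.47 and 6.16 with H2BK120R, against 6.72 and 6.68 with vector. Both mutant arrays were lower, by a mean of -0.39 ± 0.27, which was -0.23 when H2BK120R replicate 2 was left out.

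Over the 11 brighter genes, 8 were lower and 3 higher (COL4A2, COL1A2 and COL18A1), and the median difference was -0.12. Of all probe sets at 6.4 or more, 44.8% were lower and the median was 0.03. The brighter median depended on single arrays: it was 0.075, with 6 genes higher, without vector replicate 1, and -0.36 without H2BK120R replicate 1. It was -0.24 without vector replicate 2, and 5 genes were higher without H2BK120R replicate 2. The sign held for 5 of the 11 genes under each normalization and left-out array that was run. These were COL4A1, COL5A1, COL12A1 and COL26A1 on the lower side and COL1A2 on the higher. For COL4A1, COL5A1 and COL26A1 the groups did not overlap. Their sign must then hold with any 1 array left out, which is no added support.

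The 30 dimmer genes showed a similar lean with larger errors, a median limma standard error of 0.31 against 0.26 for the brighter genes. Of these, 23 were lower and 7 higher, and the median was -0.19. Of all probe sets below 6.4, 54.0% were lower with a median of -0.04, and of the 348 olfactory receptor genes 62.1% were lower with a median of -0.11. Dim probe sets thus tended the same way across the array, to a smaller extent, and the part of that tendency in the collagen values was not tested. The median deviation of the dimmer collagen genes from their own means was -0.08 and -0.11 in the arrays with H2BK120R, against 0.09 and 0.07 in the vector arrays. Their median difference stayed between -0.22 and -0.17 with any 1 array left out. The sign of 18 of the 30 held under both other normalizations and with each array left out. Of the 30, 11 were lower and 3 higher without overlap between groups. Such genes must keep their sign when any 1 array is left out, so for them this is no added support. The filters on dim probe sets drop genes and do not alter a difference.

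Of the dimmer genes, 6 were singled out by the smallest unadjusted p. COL21A1, a fibril-associated collagen, was at 3.06 and 1.86 with H2BK120R, against 3.42 and 3.30 with vector. The second mutant array stood apart: the difference of -0.90 ± 0.38 shrank to -0.30 when that array was left out, and was -1.50 without H2BK120R replicate 1. The COL21A1 value of 1.86 in H2BK120R replicate 2 was near the lowest of any probe set on that array, 1.72. COL16A1, of the same class, was at 4.48 and 4.64 with H2BK120R, against 5.69 and 4.75 with vector. The groups did not overlap, but the difference of -0.66 ± 0.36 was -0.19 without vector replicate 1 and -1.13 without vector replicate 2. COL22A1, found at tissue junctions such as that of muscle and tendon, was at 3.76 and 3.31 with H2BK120R, against 3.24 and 2.82 with vector. It was higher without overlap, at 0.51 ± 0.31, a difference that was 0.28 when H2BK120R replicate 1 was left out and 0.30 when vector replicate 2 was.

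COL25A1, a transmembrane collagen known from amyloid plaques, was at 4.15 and 4.10 with H2BK120R, against 4.71 and 4.56 with vector. COL13A1, a transmembrane collagen of the neuromuscular junction, was at 2.15 and 2.07 with H2BK120R, against 2.52 and 2.52 with vector. Both were lower without overlap, at -0.51 ± 0.30 and -0.41 ± 0.26, and with COL23A1 all 3 transmembrane genes had values below 0. COL23A1 overlapped between groups, and its difference was 0.24 without H2BK120R replicate 2 and 0.175 without vector replicate 1. The COL13A1 levels were near the floor of the array, where the lowest mean level of a probe set was 1.85. COL4A3, described above, was the sixth. The limma adjusted p-values of these 6 dim genes lay between 0.745 and 0.804.

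By class, all 5 type VI genes were lower, from -0.30 to -0.10. Of them 1, COL6A6, was lower without overlap (20%, against 17.9% of all probe sets). The count of 5 lower genes rested on single arrays. COL6A1 and COL6A3 were at 0.23 and 0.58 without vector replicate 2, and COL6A5 at 0.10 without vector replicate 1. COL6A1 was also at 0.29 when H2BK120R replicate 2 was left out, while COL6A2 and COL6A6 kept their sign. Of 10 fibril-associated genes 8 were lower and 2 higher (COL14A1 and COL22A1), with a median of -0.14. Of the 3 short-chain network genes COL8A1 was higher, at 0.37, and COL8A2 and COL10A1 lower, at -0.39 and -0.27. The multiplexins split, with COL18A1 higher and COL15A1 lower at -0.33, or 0.02 without vector replicate 1. COL28A1, which resembles type VI, differed by -0.42. In no class did a member pass limma's adjusted threshold, which does not show that the groups were equal.

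**Figure D3:**
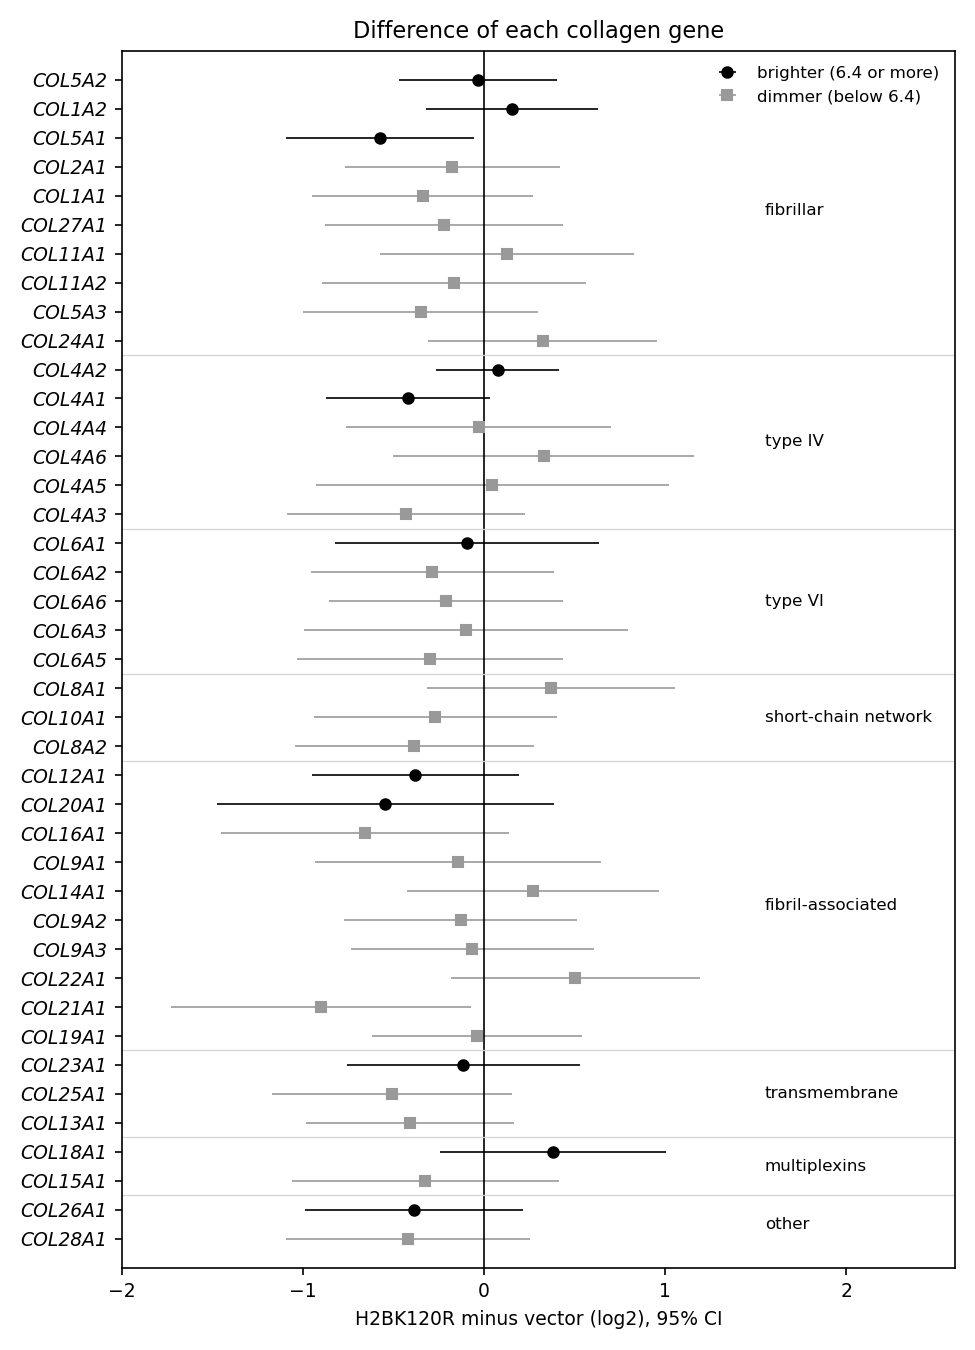
Difference (H2BK120R minus vector, log2) of the 41 collagen genes with the 95% confidence interval from limma, arranged by class, with circles for the brighter and squares for the dimmer genes. The intervals of COL5A1 and COL21A1 lie wholly below 0 and those of all other collagen genes include it.

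Since chains of 1 collagen type assemble together, partner chains were set against each other within each array. The pairs were the 7 types with both an A1 and an A2 chain measured and the 2 further head-to-head pairs of type IV, picked after the single values were seen. The level of COL4A1 minus that of COL4A2 was -3.61 and -3.12 with H2BK120R, against -3.05 and -2.69 with vector. For COL5A1 minus COL5A2 the values were -2.43 and -2.66 with H2BK120R, against -2.14 and -1.87 with vector. For COL1A1 minus COL1A2 they were -2.33 and -2.31 with H2BK120R, against -1.70 and -1.95 with vector. In these 3 pairs both mutant arrays lay below both vector arrays, by -0.50, -0.54 and -0.50. Among single probe sets 17.9% lay that way, and no such share was computed over pairs of genes, so the 3 of 9 pairs are a description only.

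The remaining 6 pairs overlapped. Their differences were 0.19 for type VI, 0.76 for type VIII, -0.02 for type IX and 0.29 for type XI, -0.40 for COL4A3 minus COL4A4 and 0.29 for COL4A6 minus COL4A5. For types IV (COL4A1 and COL4A2), V and I the sign held with any 1 array left out, from -0.74 to -0.25, from -0.68 to -0.41 and from -0.62 to -0.37. That follows from groups that do not overlap and is no added support. For such a value the smallest two-sided p of an exact permutation test is 0.333 with 2 arrays a group.

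**Figure D4:**
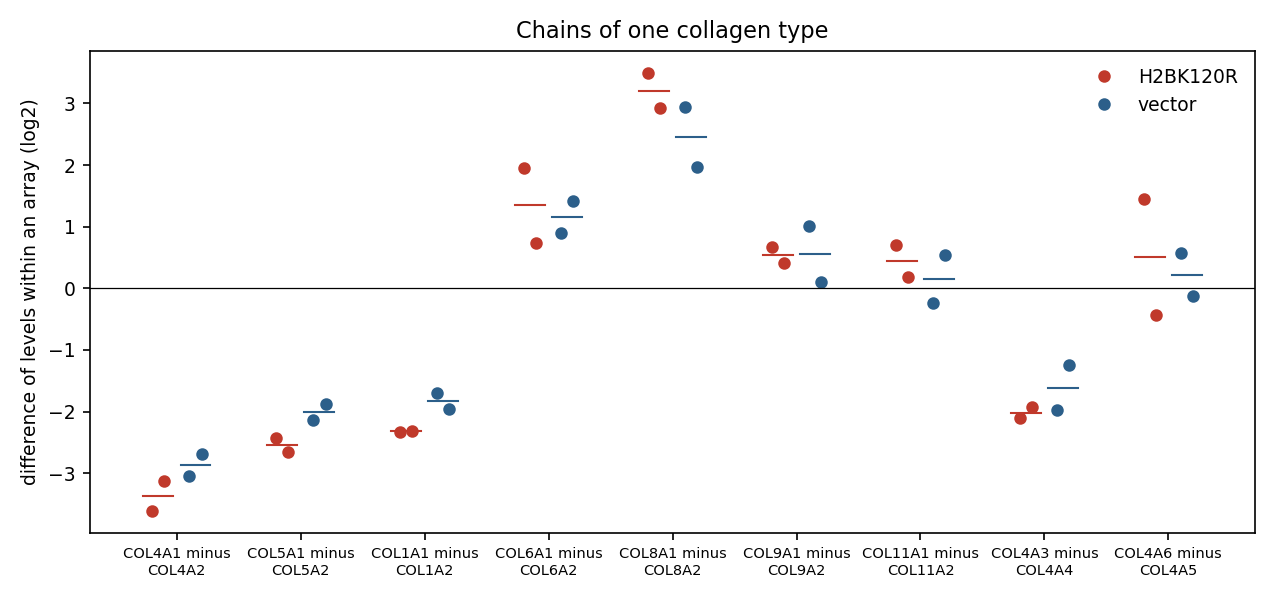
Level of the first chain minus that of the second within each array (log2) for 9 pairs of collagen chains, H2BK120R in red and vector in blue, with the group mean as a short line. Red lies below blue without overlap in the 3 pairs on the left, and the other 6 pairs overlap.

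Promoter sequence is described here for the brighter and dimmer genes without a test. Windows from RefSeq were matched for 30 of the 41 genes, 7 brighter and 23 dimmer. No window was matched for COL1A1, COL1A2, COL2A1, COL5A2, COL6A1, COL6A5, COL8A1, COL9A3, COL14A1, COL20A1 and COL22A1. The 7 brighter windows held a median of 36 CpG dinucleotides, from 28 to 46, and the 23 dimmer ones a median of 17, from 1 to 45. Over the 27305 genes of the table the median was 13. The brighter genes include COL4A1 and COL4A2, whose windows overlap and are not independent.

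GGGCGG or its complement was in 6 of the 7 brighter windows (85.7%), 10 of the 23 dimmer ones (43.5%) and 44.5% of all. The median share of G and C was 74.0% in the brighter windows, 65.7% in the dimmer and 58.3% in all. Its part in the GGGCGG counts was not tested. CCAAT on either strand was in 28.6% of the brighter, 26.1% of the dimmer and 35.7% of all windows. TATAAA on either strand was in 0 brighter and 3 dimmer windows (COL6A2, COL6A6 and COL13A1), against 12% of all. The AP-1 motif TGANTCA was in 0 of the 30 windows, against 7.72% of all.

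The genes that prepare collagen inside the cell were mostly bright. Of 23 listed genes for modification, folding and export, 21 were measured and 19 reached 6.4. Of the 21, 13 were higher and 8 lower, and the median difference was 0.06. Of all probe sets at 6.4 or more, 44.8% were lower and the median was 0.03. P4HA2, a catalytic subunit of the prolyl hydroxylase that stabilises the helix, was at 9.75 and 9.60 with H2BK120R, against 10.25 and 9.97 with vector. It was lower without overlap, at -0.44 ± 0.18 with an unadjusted p of 0.0362 and a limma adjusted p of 0.745. The prolyl hydroxylases P3H2 and P3H3 had differences of 0.34 ± 0.19 and 0.46 ± 0.26, and SEC23A, a coat protein needed for procollagen export, one of 0.25 ± 0.13. P3H2 overlapped between groups, at 11.88 and 12.48 with H2BK120R, against 11.91 and 11.77 with vector, while P3H3 and SEC23A did not overlap. SERPINH1, the collagen chaperone, was at 11.67 and 12.04 with H2BK120R, against 11.65 and 11.95 with vector.

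Of the 16 measured genes for procollagen processing and cross-linking, 12 were lower and 4 higher, and the median was -0.14. Of the 16, 25% reached 6.4, and of all probe sets below 6.4, 54.0% were lower with a median of -0.04. The smallest p were those of the protease MEP1A (-0.60 ± 0.28), the enhancer of propeptide cleavage PCOLCE2 (-0.37 ± 0.25), the lysyl oxidase LOXL3 (-0.39 ± 0.29) and the procollagen protease ADAMTS3 (0.37 ± 0.31). Of these 4, PCOLCE2 reached 6.4, at a mean level of 7.53. The 11 measured collagen receptors had 6 genes higher and 5 lower, at a median of 0.16. ITGB1, the beta chain of the collagen-binding integrins, was at 16.94 and 16.82 with H2BK120R, against 16.65 and 16.77 with vector, at a difference of 0.17 ± 0.09. ITGA11 differed by 0.50 ± 0.34, the uptake receptor MRC2 by -0.30 ± 0.23 and ADGRG1 by 0.23 ± 0.18. ITGA11 and ADGRG1 overlapped between groups, and ITGA11 was dim, at a mean level of 4.93.

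For the 13 measured genes of collagen degradation and its inhibitors the median was -0.04, with 6 higher and 7 lower. FAP, a fibroblast protease that trims collagen, was dim at 2.69 and 4.10 with H2BK120R, against 2.71 and 2.09 with vector, and overlapped despite a difference of 1.00 ± 0.43. The collagenases MMP13 and MMP1 differed by -0.64 ± 0.37 and 0.40 ± 0.45, and the inhibitor TIMP1 by -0.36 ± 0.22. MMP13, MMP1 and TIMP1 overlapped between groups, and MMP13 and MMP1 were dim, at mean levels of 2.735 and 4.125. Of 13 measured basement membrane partners 8 were lower and 5 higher, and the median was -0.17. Over all probe sets 49.4% were lower and the median was 0. The laminin chains LAMA4, LAMC1 and LAMC3 differed by -0.39 ± 0.27, -0.18 ± 0.13 and -0.27 ± 0.30, and the proteoglycan HSPG2 by 0.23 ± 0.26. LAMC3 was dim, at a mean level of 4.655, and HSPG2 overlapped between groups.

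Of 16 measured fibril partners 4 were higher, 11 lower and 1 equal, with a median of -0.13. Of the 16, 3 reached 6.4, and of all probe sets below 6.4, 54.0% were lower with a median of -0.04. The microfibril protein FBN1 differed by -0.56 ± 0.29, the fibril-binding proteoglycan FMOD by -0.55 ± 0.30, POSTN by -0.36 ± 0.31 and FBLN1 by 0.30 ± 0.23. FBN1, FMOD and POSTN were dim, at mean levels of 5.52, 3.36 and 3.255, and FBLN1 overlapped between groups. None of the genes in these 6 lists passed limma's adjusted threshold, and 2 of their 90 measured genes, P4HA2 and FAP, had an unadjusted p under 0.05. That share was below the 6.70% of all probe sets.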

How the data were processed

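RNA of 4 A549 samples was measured by Affymetrix whole-transcript array, per the labels' protocols, with groups and replicate numbers from the sample titles. The deposited values were taken to be log2 levels per probe set, normalized between arrays. No source states the base, which was read from their range of 1.56 to 19.15. That arrays were normalized was read from their similar medians, which do not show it by themselves. The submitters' processing notes name MAS5. Background correction, probe summary and genome build: not given in the sources used here. Precision is limited by the number of arrays.

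Genes were named from GEO's platform annotation: of 21448 probe sets 17709 had 1 symbol, 0 several and 3739 none. The brightest probe set stood for a gene. H2BK120R was compared with vector on the deposited values with limma 3.58.1 (R 4.3.3), a two-sided test without covariates that used lmFit and then eBayes with its trend option. Adjusted p-values are Benjamini-Hochberg values over the whole array. Residual degrees of freedom were 2, and eBayes added a median of 8.95 prior degrees of freedom taken from the other probe sets. A limma standard error, interval or p-value thus rests more on probe sets of similar level than on a gene's own spread. The code was tested on simulated data. Promoter windows came from RefSeq (GRCh38.p14), taking the most upstream window of a gene. Figures used Python 3.11.15 and matplotlib 3.10.9.

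The collagen genes, their classes, the 6 partner lists and the cell type markers were chosen with earlier results of these data known. Named were all brighter genes, the 6 dimmer ones with the smallest p, the 3 nearest below 6.4, head-to-head neighbours and the 4 genes of each partner list with the smallest p. SERPINH1, and the members named to identify a count or the extremes of a class, were added after their values were seen. Alternatives were quantile normalization, equal medians, a filter on the dimmest 25% or 50%, eBayes without trend or robust, the replicate number as a block, each array left out, and a division at 7. A pseudocount does not apply to log2 values, and each collagen gene had 1 probe set, so a mean over probe sets was not needed.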

Additional observations from a re-analysis of the deposited data

How the results depend on the processing

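In limma 0 probe sets passed an adjusted p of 0.05 under every setting run. Before adjustment, p was under 0.05 for 1437 probe sets as reported, 903 without the dimmest 50%, where fewer were tested, and from 495 (without H2BK120R replicate 2) to 2427 (without vector replicate 2) with 1 array left out. The lone array is then assumed to vary like the other group. The 2 collagen genes became 1 without the dimmest 25% or 50%, which leaves out COL21A1, and from 1 to 3 with 1 array left out. These were not the same genes: COL21A1 alone without H2BK120R replicate 1, COL18A1 alone without H2BK120R replicate 2, COL4A1 and COL6A3 without vector replicate 1, and COL5A1, COL16A1 and COL20A1 without vector replicate 2. Without the eBayes trend they were COL5A1 and COL25A1. The median of the brighter genes ran from -0.36 to 0.075 with 1 array left out, and the number of them that were higher from 2 to 6. The median of the dimmer genes was -0.22 without the dimmest 25%, and from -0.22 to -0.17 with 1 array left out. Beyond the fewer genes or arrays, the cause was not tested. A division at 7 gave medians of -0.08 and -0.21. With the replicate block 1846 probe sets had an unadjusted p under 0.05, and no call changed. Arrays of the same number deviated together only weakly (r = 0.14 across probe sets), and with 2 pairs this does not show that the numbers pair the samples.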
